A study of Mus musculus with 24 samples.

Results

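The response of the Pld4 knockout (KO) kidney to 10 days of unilateral ureteral obstruction (UUO) was described across all genes by setting 4 KO libraries at day 10 against 4 KO libraries at day 0. These are 8 of the 24 mouse kidney libraries of the study, chosen by the names of their columns in the count table. The KO day 10 group carries the genotype label PLD4-/- and the treatment label UUO. The KO day 0 group has the same genotype and is labelled control. Where the response is set beside other groups, these are KO at day 5 of UUO and, with the label PLD4+/+, wild type (WT) at day 10 of UUO and at day 0. Age, sex, strain, the deleted part of Pld4 and whether a day 0 kidney had a sham operation are not given in the labels, and all KO groups share whatever else the allele carries. The labels do not say that replicates are separate animals, so p values measure the spread between libraries. That spread was estimated in a fit of all 24 libraries. The p values and standard errors thus also carry the spread within WT groups and other groups not compared. The tissue was whole kidney, so fewer cells of a type and less RNA per cell cannot be told apart.

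Tying off 1 ureter stops the flow of urine from that kidney, and pressure, tubular injury, inflammation and scarring follow, which makes UUO a common model of kidney fibrosis. The nephron reclaims filtered sugar, amino acids and ions in the proximal tubule and fine-tunes salt, calcium and acid further along, work that runs on mitochondrial and peroxisomal fat oxidation. Injured tubule cells are known to lose these functions and to switch on injury genes, while fibroblasts lay down collagen and leukocytes enter. PLD4 is a membrane protein of endosomes and lysosomes that degrades single-stranded nucleic acids and is found mainly in myeloid cells and B cells.

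The 8 libraries held 9800888 to 15799671 counts. Levels are given in CPM, counts per 1000000, with a library's size taken as its total count times its TMM factor. Differences are log2 fold changes, KO day 10 over KO day 0 with their standard error, and adjusted p values come from the quasi-likelihood test of edgeR, run across 15080 genes. A gene is said to have risen or fallen where its adjusted p was under 0.05. Markers of the kidney were present in all 8 libraries, among them Slc34a1 of the proximal tubule, Umod of the thick limb and Nphs1 of the podocyte. The first principal component of the 12 KO libraries, with 69.9% of the variance, ran from -95.75 to -78.83 at day 0, from 19.20 to 38.75 at day 5 and from 42.51 to 71.07 at day 10.

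**Figure D1:**
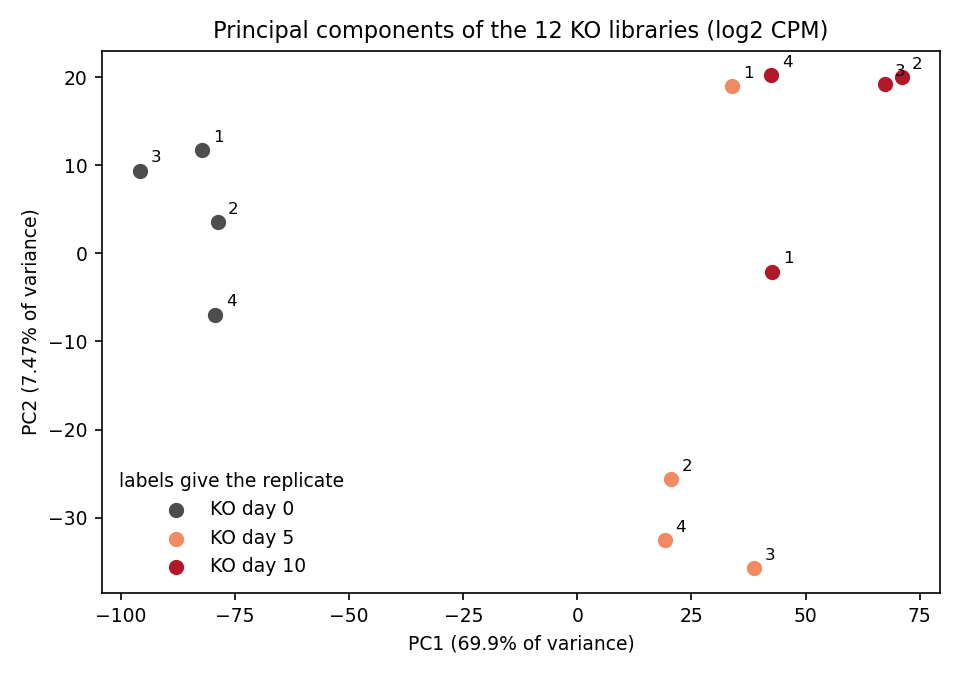
Each point is 1 KO library on the first and second principal components of log2 CPM, coloured by day and numbered by replicate. The 4 day 0 libraries lie between -95.75 and -78.83 on the first component, and the 8 obstructed libraries lie at 19.20 or above.

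A control library stood apart from its group. KO day 0 replicate 4 had 877.7 CPM of Xist, the RNA that coats the inactive X chromosome of females, against at most 0.6916 CPM in each of the other 23 libraries. It also had 0.3894 CPM of the Y-linked gene Ddx3y, against 58.0 to 98.8 CPM in the other 23, and Kdm5d was listed at 0 there. By these genes it had the pattern of a female and the other 23 that of males. The labels give no sex, and a female KO day 0 kidney cannot be told apart here from a library that carries the wrong label. It differed in transporters and enzymes of the proximal tubule that differ between the sexes in mice. The androgen-dependent gene Kap had 13993 CPM there, against 40622 to 48011 CPM in the other 3 KO day 0 libraries. Cyp7b1, an oxysterol hydroxylase, had 7.242 CPM there and 434 to 597 CPM in the other 3. The prolactin receptor gene Prlr had 427 CPM there and 25.7 to 78.2 CPM in the other 3. In all, 86 genes lay at least 4-fold outside the other KO day 0 libraries in that library, against at most 1 in any of the other 3. These genes were picked after their values were seen. Counts below use all 8 libraries. List counts of rises and falls from KO day 0 to KO day 10 are given both ways where they move by over 1.5 times without that library. The same holds where they change between none and some.

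The targeted gene was read first. Pld4 had 24.3, 36.1, 38.5 and 50.2 CPM in the 4 libraries labelled KO at day 10, against 12.6, 9.90, 8.68 and 6.70 CPM in the 4 labelled KO at day 0. Every day 10 library lay above every day 0 library. The transcript was thus present in all 8, and it rose by 1.98 ± 0.28 on the log2 scale (adjusted p = 1.03e-05 by edgeR). At day 0 the libraries labelled KO were not below the 4 WT libraries, which held 5.10 to 8.25 CPM. The count of the whole gene gave no check of the labels at day 0, since the deleted part is not stated. Of the other members of the family, Pld2, an enzyme that cuts phosphatidylcholine, rose by 1.71 ± 0.18, and Pld3, a lysosomal nuclease, had a difference of 0.14 ± 0.12 that did not pass.

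Most genes changed at day 10 of obstruction. Of 15080 genes tested, 8193 passed, which is 54.3%. They split into 4268 higher (28.3%) and 3925 lower (26.0%). A rise of at least 2-fold was seen for 2668 genes (17.7%) and a fall of that size for 1592 (10.6%). The 2 groups did not overlap for 4508 genes that were higher (29.9%) and 4024 that were lower (26.7%). The shares for gene lists below are to be read against 28.3% higher and 26.0% lower. The median gene had a log2 fold change of 0.04. The split between rises and falls depended on the scaling: with libraries scaled to their total count the median gene stood at 0.491 and 7857 genes were higher against 1696 lower. On log2(FPKM + 1) it stood at 0.509, with 8427 higher against 1135 lower. Without KO day 0 replicate 4, 7780 genes passed, and 7476 of them were among the 8193, all in the same direction.

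**Figure D2:**
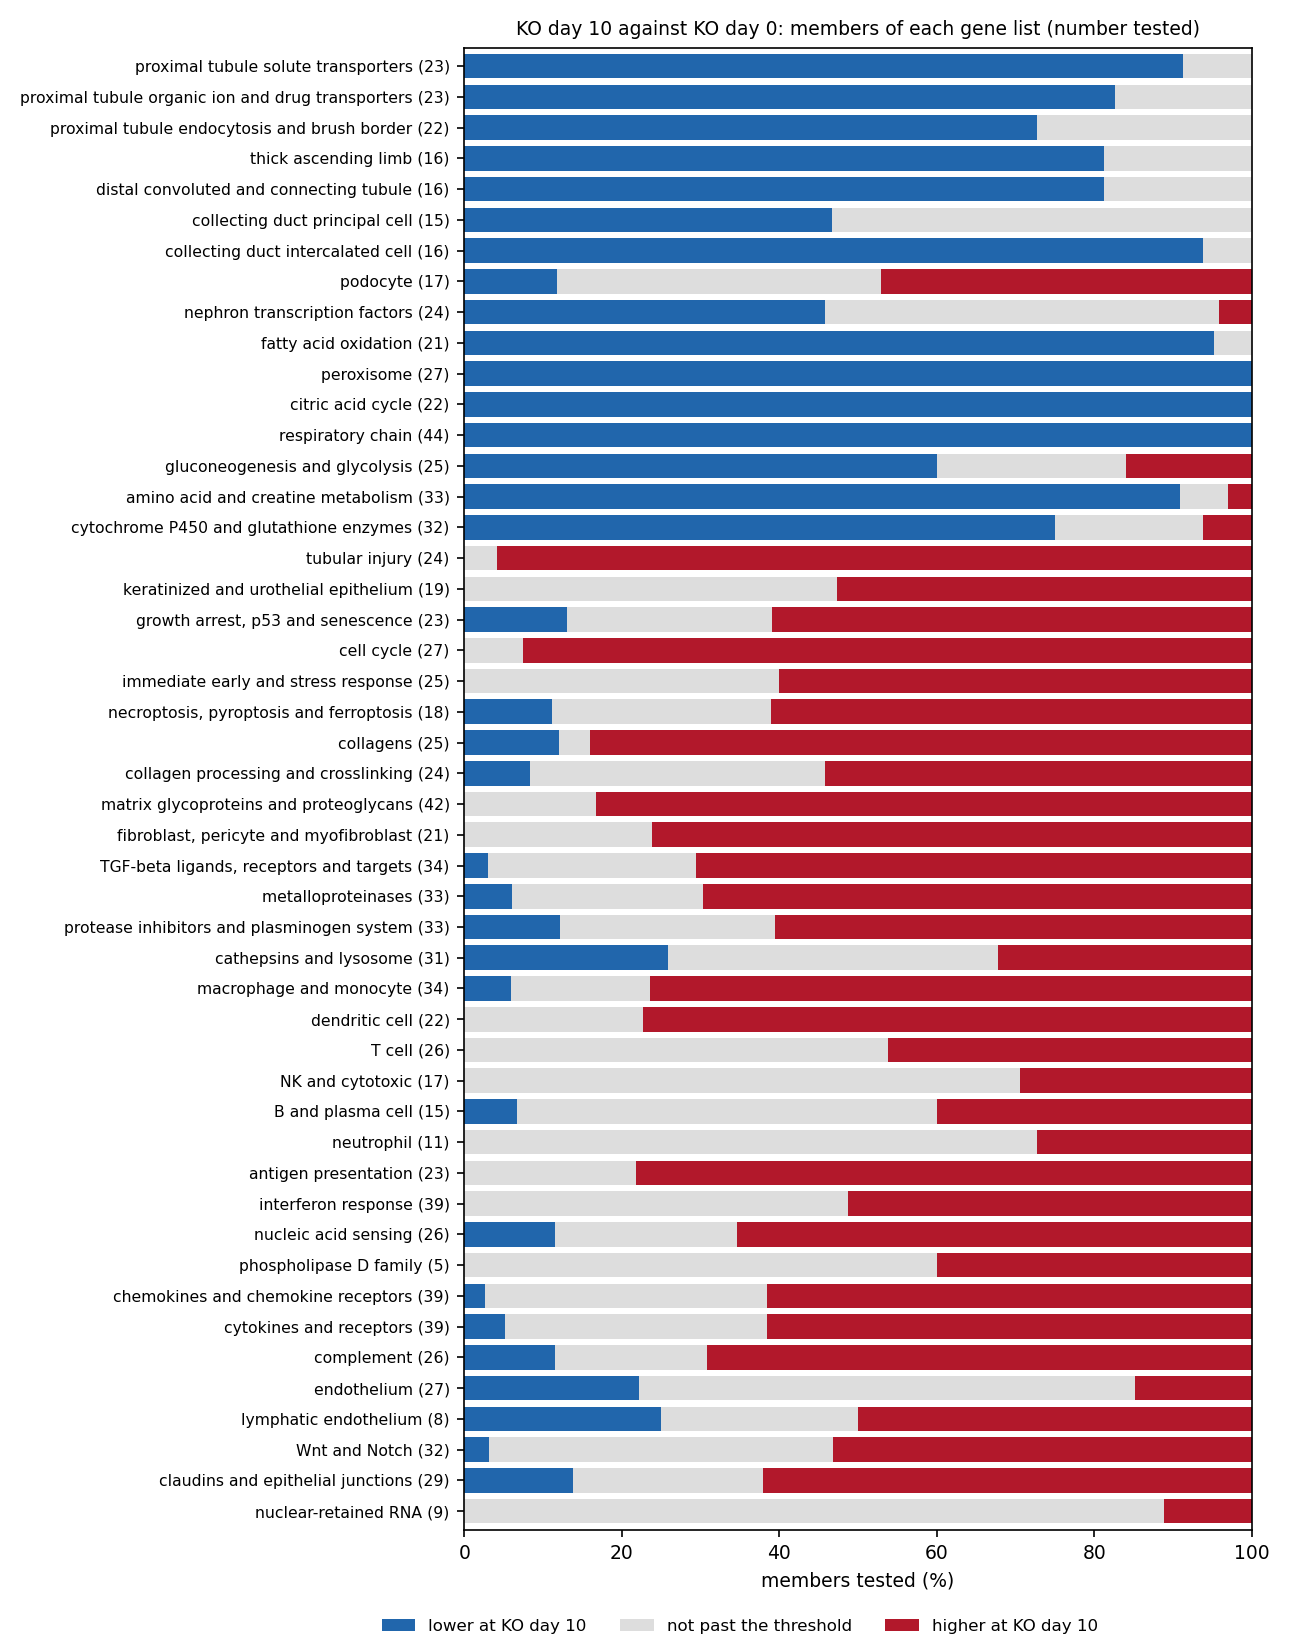
Each bar is 1 gene list with at least 5 tested members, and its parts are the percent of members lower, not past the threshold and higher at KO day 10 against KO day 0. All members of the peroxisome, citric acid cycle and respiratory chain lists were lower, and 23 of 24 tubular injury genes were higher.

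Markers of tubular injury rose nearly as a block. Of 24 injury genes 23 rose, none fell and 1 did not pass, with a median of 2.93 against 0.04 over all genes. Havcr1, the kidney injury molecule of proximal tubule cells, had 755, 632.5, 864 and 895 CPM at KO day 10, against 3.86, 5.61, 4.42 and 3.74 CPM at KO day 0. The groups lay far apart, and the rise was 7.48 ± 0.33 (adjusted p = 2.63e-12 by edgeR). Krt20, a keratin of injured tubules and urothelium, had 55.3, 65.5, 51.4 and 45.9 CPM at KO day 10 and at most 1.20 CPM at KO day 0, a rise of 6.52 ± 0.41. Lcn2, the iron-siderophore carrier used as an injury marker, had 179, 420, 686 and 258 CPM at KO day 10 and 4.21, 7.28, 4.57 and 4.21 CPM at KO day 0. Vcam1, an adhesion molecule of injured proximal tubule cells and of endothelium, rose by 4.14 ± 0.26, and the tight junction gene Cldn4 by 2.87 ± 0.19.

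Spp1, which codes for the secreted phosphoprotein osteopontin, had the highest mean CPM of all genes at KO day 10. CPM is not corrected for transcript length. It had 18343, 18183, 22845 and 15806 CPM at KO day 10, against 1037, 1319, 908 and 3215 CPM at KO day 0, with the 3215 in the library that carried Xist. The rise was 3.54 ± 0.38. The chaperone gene Clu rose by 2.17 ± 0.37 to 1796 to 3200 CPM at KO day 10, against 376 to 880 CPM at KO day 0. Both are among the 10 genes of highest mean CPM at day 10, with the invariant chain gene Cd74, which rose by 1.09 ± 0.32. Among the other 7 of these 10, the translation factor Eef1a1 had a difference of 0.01 ± 0.21 that did not pass.

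Genes that were silent or nearly so at day 0 appeared at day 10. Il1f6, an interleukin-36 of epithelia, had 6.99, 9.97, 18.8 and 12.6 CPM at KO day 10 and no count in any KO day 0 library, and was at least 188-fold higher against 3 counts over the group. Mmp7, a metalloproteinase of epithelial cells, had 16.2, 45.4, 81.2 and 33.5 CPM at KO day 10 and a single count over KO day 0, a ratio of 2062 with a 95% counting interval of 369.8 to 81455. The serine protease gene Prss22 and the cornified envelope gene Sprr2f had ratios of 121.1 (41.22 to 589) and 402.6 (71.99 to 15928). The basal keratin gene Krt14 rose by 6.90 ± 1.27, with 20.3, 26.6, 3.22 and 5.69 CPM at KO day 10 and at most 0.172 CPM at KO day 0. The hemidesmosomal collagen gene Col17a1 rose by 6.48 ± 0.65. Of 19 tested genes of keratinized and urothelial epithelium 10 rose and none fell. These intervals and bounds cover counting error only.

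The transporters of the proximal tubule fell nearly as a block. Of 23 solute transporters 21 fell, none rose and 2 did not pass, with a median of -1.64. Slc34a1, the sodium-phosphate cotransporter of the brush border, had 1961, 838, 721 and 1846 CPM at KO day 10, against 7116, 4924, 8346 and 7617 CPM at KO day 0, a change of -2.38 ± 0.77 (adjusted p = 0.0129 by edgeR). The groups did not overlap, and replicates 2 and 3 were the low ones at day 10. The peptide transporter gene Slc15a2 changed by -1.22 ± 0.23, the amino acid transporter genes Slc7a8 by -1.49 ± 0.30 and Slc6a18 by -1.83 ± 0.39, and the dicarboxylate transporter gene Slc13a2 by -1.63 ± 0.39. Summed over the list, KO day 10 libraries held 3902 to 6592 CPM, against 14331 to 20588 CPM at KO day 0. On log2(FPKM + 1) 13 fell and 1 rose, and with total-count scaling 17 and 1. Without KO day 0 replicate 4, 19 fell. The 2 that lost the call were Slc3a2, at -0.30, and the glucose transporter gene Slc2a2, at -1.01. Both were named after their values were seen.

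The promoters of the proximal tubule genes, whether or not they fell, were read for the letters bound by the proximal tubule factors HNF4 and HNF1, whose gene Hnf4a had 423, 315, 282 and 430 CPM at KO day 10 and 1016, 859, 1214 and 1059 CPM at KO day 0, a change of -1.52 ± 0.38. In RefSeq windows of 300 bases on GRCm38.p6, 58 of the 68 tested proximal tubule genes had a promoter. The HNF4 core CAAAGTC, read on both strands, was in 8 of them (13.8%), and the HNF1 half-site GTTAAT in 8 (13.8%). Among all 11253 tested genes with a promoter the shares were 4.94% and 6.07%, and 4.44% and 7.1% of all 32851 windows held them. Both were in 4 of the 58 (6.9%), against 0.498% of all. Slc34a1 and Slc3a1, a subunit of the cystine transporter that changed by -1.56 ± 0.45, had both letters and the lowest adjusted p among these, so their windows are shown with the matches in capitals. The Slc34a1 window is on the plus strand at chr13:55399398-55399697 and that of Slc3a1 on the plus strand at chr17:85028097-85028396. A match is no evidence of binding.
Slc34a1: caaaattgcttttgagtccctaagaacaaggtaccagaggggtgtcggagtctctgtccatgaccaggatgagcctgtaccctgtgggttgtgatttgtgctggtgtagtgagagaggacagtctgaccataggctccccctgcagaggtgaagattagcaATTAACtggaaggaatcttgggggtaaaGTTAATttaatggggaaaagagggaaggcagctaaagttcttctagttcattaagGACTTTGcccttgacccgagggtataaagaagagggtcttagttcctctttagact
Slc3a1: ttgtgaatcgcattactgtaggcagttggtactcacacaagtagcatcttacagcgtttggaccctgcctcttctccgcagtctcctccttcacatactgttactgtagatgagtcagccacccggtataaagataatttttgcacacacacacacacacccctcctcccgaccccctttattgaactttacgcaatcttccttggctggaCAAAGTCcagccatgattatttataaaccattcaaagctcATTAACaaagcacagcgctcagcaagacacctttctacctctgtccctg

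Organic ion and drug transporters moved the same way. Of 23, 19 fell, none rose and 4 did not pass, with a median of -2.24. Slc22a8, the organic anion transporter OAT3, had 96.0, 13.1, 21.1 and 69.0 CPM at KO day 10, against 768, 538, 696.5 and 1594 CPM at KO day 0. The groups did not overlap, and the change was -4.17 ± 1.09. Slc22a7, the anion transporter OAT2, changed by -3.93 ± 1.06, the carnitine transporter gene Slc22a5 by -1.69 ± 0.35 and the urate exporter gene Abcg2 by -1.39 ± 0.30. The size of the fall of Slc22a29 rested on 1 library: it had 78.0 CPM in KO day 0 replicate 4 and 2.28 to 3.70 CPM in the other 3. Its change was -5.38 ± 1.06 with that library and -2.40 without it. The organic anion transporter gene Slco1a1 passed only without it (-2.66, against -2.24 with it), and the exporter gene Abcc4 passed as a rise of 0.61 only without it. Without that library the list counted 20 lower and 1 higher.

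The endocytic and brush border apparatus fell in 16 of 22 genes, or 9 on log2(FPKM + 1), with none higher in either. Lrp2, the megalin receptor that takes up filtered protein, had 405 to 813 CPM at KO day 10, against 2557 to 4148 CPM at KO day 0, a change of -2.37 ± 0.54. The aminopeptidase gene Anpep changed by -1.41 ± 0.30 and the dipeptidase gene Dpep1 by -1.52 ± 0.35. The lists of later segments fell as well. In the thick ascending limb 13 of 16 genes fell and none rose. Egf, the epidermal growth factor made there and in the distal tubule, had 231, 39.0, 42.6 and 254 CPM at KO day 10, against 2399, 2386, 2432 and 3262 CPM at KO day 0, a change of -4.21 ± 0.96. The kinase gene Wnk1 changed by -1.45 ± 0.21 and the prostaglandin receptor gene Ptger3 by -1.75 ± 0.26. Umod, a marker of that segment, had 3498, 2028, 3274 and 3184 CPM at KO day 10 and 6493, 6442.5, 5602 and 5937 CPM at KO day 0. The groups did not overlap, yet its difference of -1.03 ± 0.53 did not pass (adjusted p = 0.107 by edgeR).

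Genes of the distal convoluted and connecting tubule fell too, and 1 of them was nearly lost at day 10. Pvalb, the calcium buffer parvalbumin of the early distal convoluted tubule, had 0, 0.0590, 0.215 and 0 CPM at KO day 10, against 28.9, 36.9, 21.2 and 38.5 CPM at KO day 0. The change was -8.64 ± 0.85 (adjusted p = 1.55e-07 by edgeR). Calb1, the calcium carrier calbindin, had 103, 28.2, 29.0 and 57.2 CPM at KO day 10 and 628, 786, 699 and 1321 CPM at KO day 0. Klk1, tissue kallikrein, changed by -4.19 ± 0.81, the sodium-calcium exchanger gene Slc8a1 by -1.91 ± 0.31 and the magnesium channel gene Trpm6 by -1.18 ± 0.20. Of the 16 genes of this list 13 fell and none rose, and the counts were 12 and 1 without KO day 0 replicate 4, the same with total-count scaling, and 10 and 2 on log2(FPKM + 1).

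The 2 cell types of the collecting duct differed in how many of their genes passed. Of 16 intercalated cell genes 15 fell, among them the acid-base transporter genes Slc4a1 (-3.72 ± 0.66) and Slc26a4 (-2.08 ± 0.37) and the ammonia channel gene Rhbg (-2.38 ± 0.45). Of 15 principal cell genes 7 fell and 8 did not pass. With total-count scaling 3 principal cell genes were lower and 1 higher, and on log2(FPKM + 1) 4 and 1, against 8 and 1 for intercalated cells. The water channel gene Aqp4 changed by -2.61 ± 0.49, the sodium channel subunit gene Scnn1a by -1.75 ± 0.36 and the vasopressin receptor gene Avpr2 by -1.59 ± 0.51. Whether the 2 lists differ was not tested. Slc4a1 is also a red cell gene, and Alas2, the heme enzyme of red cell precursors, changed by -2.13 ± 0.77, while the globin genes were listed at 0 in every library.

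Transcription factors of the nephron fell less uniformly. Of 24, 11 fell and 1 rose. The nuclear receptor genes Esrrb, Vdr and Rxra changed by -2.60 ± 0.52, -1.37 ± 0.28 and -0.86 ± 0.22. The coactivator gene Ppargc1a, a regulator of mitochondrial genes, had 80.0, 54.8, 52.1 and 68.8 CPM at KO day 10 and 141, 153, 149 and 159 CPM at KO day 0, a change of -1.24 ± 0.35. The epithelial factor gene Grhl2 rose by 0.50 ± 0.20. This balance depended on the scaling, since 5 were higher and 6 lower with total-count scaling and 6 and 5 on log2(FPKM + 1).

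Genes of energy metabolism fell. All 44 genes of the respiratory chain fell, with a median of -1.32, and their summed level was 6740 to 10091 CPM at KO day 10, against 20534 to 22270 CPM at KO day 0. The cytochrome oxidase subunit gene Cox5a changed by -1.31 ± 0.17 and the complex I genes Ndufv2 and Ndufs8 by -1.42 ± 0.19 and -1.35 ± 0.18. All 22 citric acid cycle genes fell, with a median of -1.34. Idh3b, a subunit of isocitrate dehydrogenase, had 118 to 166 CPM at KO day 10 and 395 to 406 CPM at KO day 0 and changed by -1.46 ± 0.19. All 27 peroxisomal genes fell, Phyh, which oxidizes branched fatty acids, by -1.66 ± 0.29. Of 21 genes of mitochondrial fatty acid oxidation 20 fell, among them the acyl-CoA synthetase gene Acsl1 (-2.43 ± 0.32) and the thiolase gene Acaa2 (-1.81 ± 0.29). With total-count scaling these 4 lists still counted 44, 21, 21 and 18 lower and none higher. On log2(FPKM + 1) the respiratory chain and citric acid cycle counted 38 and 20 lower, the peroxisome 13 and fatty acid oxidation 13, with none higher.

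Sugar metabolism was split. Of 25 genes of gluconeogenesis and glycolysis 15 fell, 4 rose and 6 did not pass, and on log2(FPKM + 1) 8 were lower and 4 higher. The glycolytic genes Gapdh, Pgk1 and Tpi1 changed by -0.94 ± 0.13, -1.45 ± 0.21 and -1.02 ± 0.16. The 4 that rose were the hexokinase genes Hk2 (3.20 ± 0.58) and Hk3 (1.94 ± 0.70), the phosphofructokinase gene Pfkp (0.43 ± 0.14) and the lactate carrier gene Slc16a3 (2.61 ± 0.99). The call for Slc16a3 was lost without KO day 0 replicate 4 (2.53).

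Of 33 genes of amino acid and creatine metabolism 30 fell and 1 rose, with a median of -2.10. Gatm, the first enzyme of creatine synthesis, had 75.7 to 192 CPM at KO day 10, against 699 to 1781 CPM at KO day 0, a change of -3.10 ± 0.42. Ddc, which makes dopamine, changed by -2.18 ± 0.33 and the branched-chain amino acid gene Hibadh by -1.91 ± 0.31, and Arg2, mitochondrial arginase, rose by 1.41 ± 0.38. Without KO day 0 replicate 4, 27 fell. The genes that lost the call were Kynu (-0.61), Oat (-0.17) and Prodh2 (-0.97), and Kynu and Oat had 84.1 and 673 CPM in that library against at most 14.8 and 201 CPM in the other 3. Among 32 cytochrome P450 and glutathione genes 24 fell, or 12 on log2(FPKM + 1). The 2 that rose were Cyp27b1, which activates vitamin D (2.17 ± 0.37), and Cyp1b1 (1.30 ± 0.23). Gpx3, plasma glutathione peroxidase, had 10251, 4332, 5881 and 8829 CPM at KO day 10, against 23257, 19041, 21993 and 33930 CPM at KO day 0, a change of -1.75 ± 0.35.

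**Figure D3:**
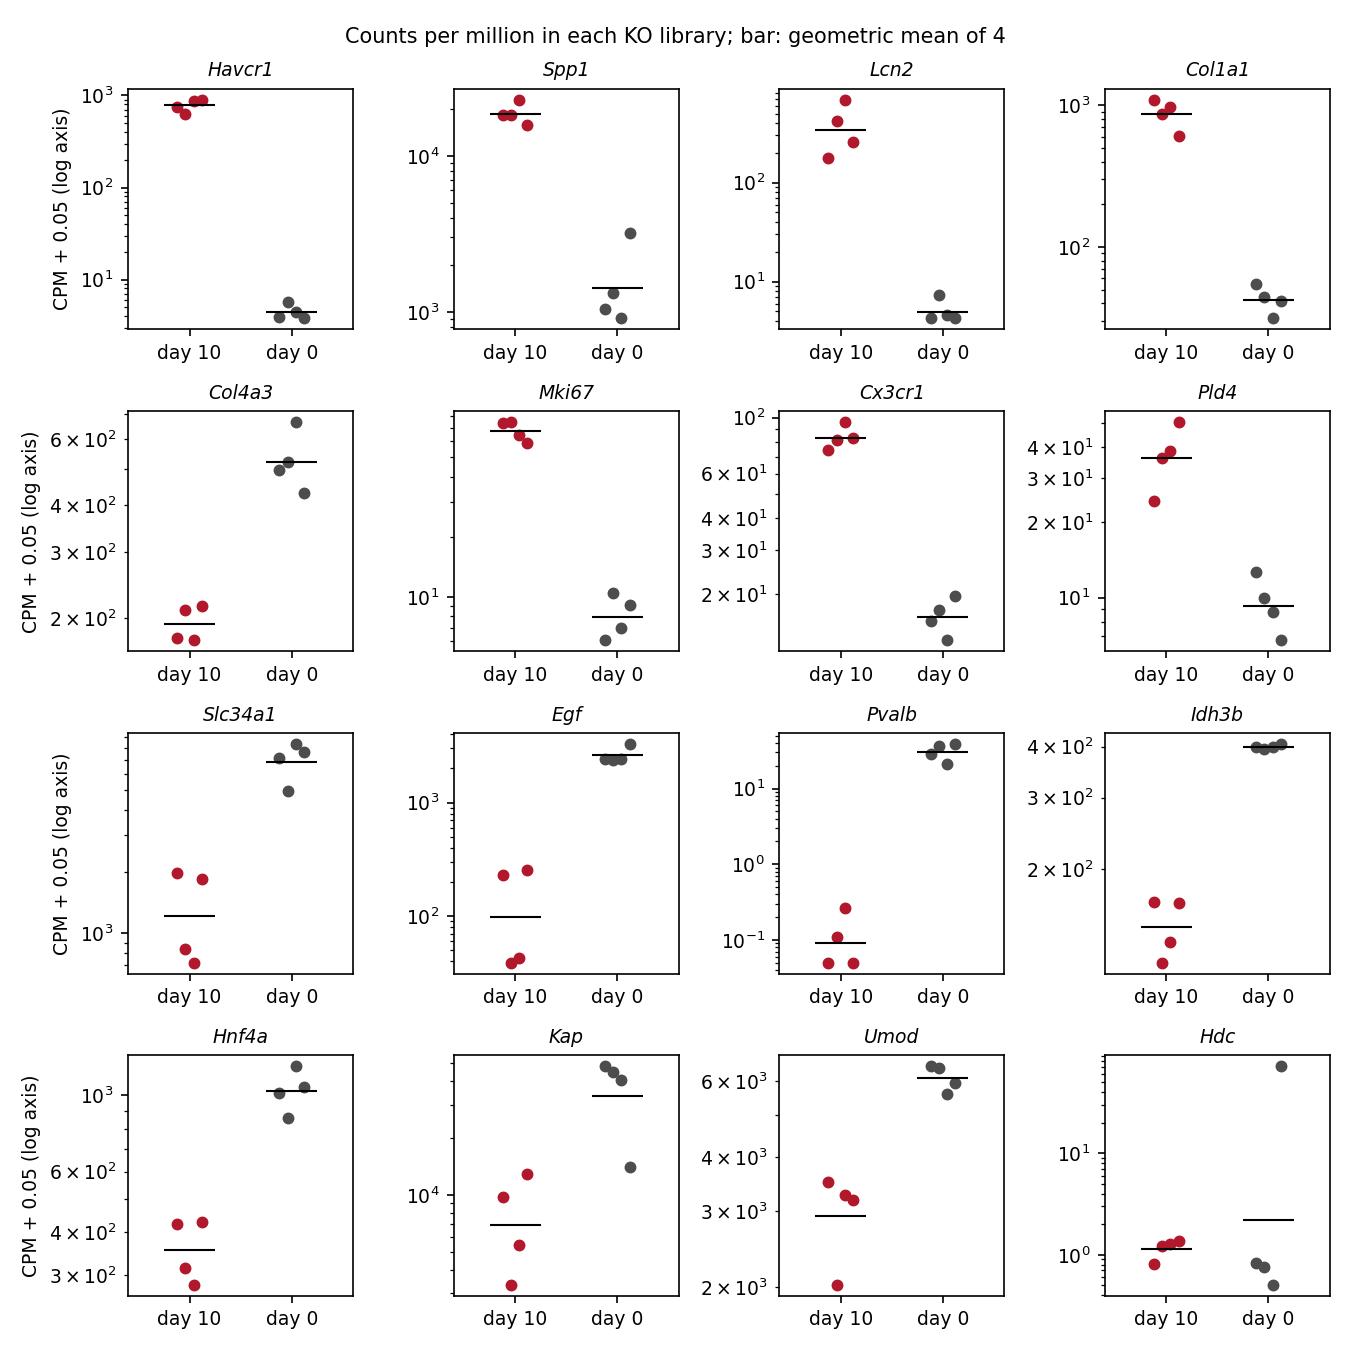
Points are single libraries at KO day 10 (left) and KO day 0 (right), as CPM plus 0.05 on a log axis with its own range in each panel, and the bar is the geometric mean of 4. Havcr1 at KO day 10 lies between 632.5 and 895 CPM, all above the KO day 0 libraries, and in Hdc 1 KO day 0 library at 71.4 CPM lies above all others.

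Within the day 10 group the loss of nephron genes was not even. Summed proximal tubule solute transporters stood at 6487, 3965, 3902 and 6592 CPM in replicates 1 to 4, so replicates 2 and 3 were lower than the other pair. Of the 3925 genes that fell, 2603 (66.3%) had their 2 lowest day 10 values in replicates 2 and 3. Each other pair held 1.27% to 9.53% of these genes, and the share over all genes tested was not counted. Replicates 2 and 3 also had the higher TMM factors, 1.22 and 1.20, against 1.11 in replicates 1 and 4. The part of these factors in the pattern was not tested. Leaving out replicate 2 gave 7126 genes past the threshold.

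**Figure D4:**
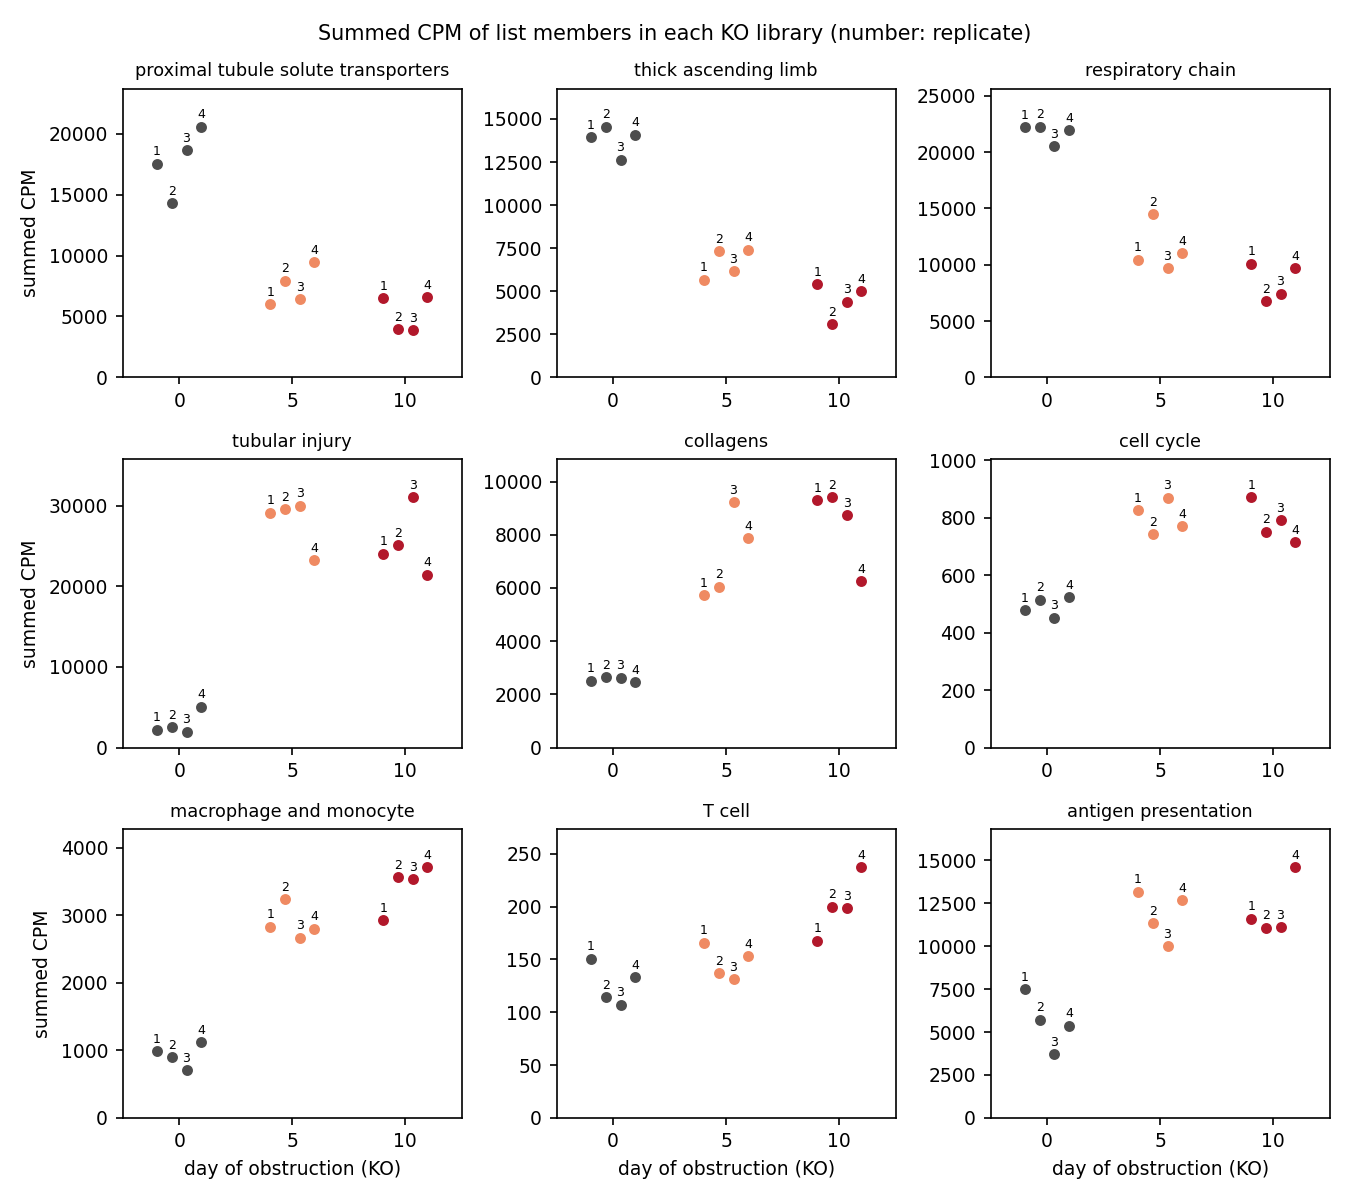
Each point is the summed CPM of a list's members in 1 KO library, by day of obstruction and numbered by replicate, with axes from 0. Solute transporters stood at 14331 to 20588 CPM at day 0, 5997 to 9482 CPM at day 5 and 3902 to 6592 CPM at day 10.

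Cell cycle genes rose together. Of 27, 25 rose and none fell, with a median of 2.36. Mki67, the Ki-67 proliferation marker, had 73.8, 74.8, 64.1 and 59.0 CPM at KO day 10, against 6.01, 10.4, 6.93 and 9.11 CPM at KO day 0, a rise of 3.07 ± 0.36 (adjusted p = 1.22e-06 by edgeR). The replication licensing genes Mcm5 and Mcm3 rose by 1.93 ± 0.20 and 2.04 ± 0.23, the kinetochore gene Cenpf by 2.79 ± 0.31 and Foxm1, a transcription factor of mitosis, by 2.32 ± 0.26. Of 23 genes of growth arrest 14 rose and 3 fell, and 16 were higher and 1 lower with total-count scaling. Among them Trp53 rose by 1.01 ± 0.13 and the p53 targets Pmaip1 and Bbc3, which promote cell death, by 2.5 ± 0.27 and 1.81 ± 0.24. Cdkn1a, the cell cycle inhibitor p21, had 38.2, 46.1, 47.3 and 37.5 CPM at KO day 10, against 24.4, 23, 15.6 and 21.6 CPM at KO day 0, a rise of 1.00 ± 0.30. Ccng1, Sesn2 and Glb1 of that list changed by -1.08 ± 0.25, -0.72 ± 0.23 and -0.91 ± 0.26.

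Promoters of cell cycle genes were read for the letters CCAAT and TTTGAA, the CCAAT box bound by NF-Y and the cell cycle homology region bound by repressor and activator complexes of mitotic genes. Of 22 list members with a RefSeq promoter 19 held CCAAT on either strand (86.4%) and 11 held TTTGAA (50%), all 11 with both. Among all 11253 tested genes with a promoter the shares were 42.1%, 14.5% and 6.98% for both, and 37.4% and 17.9% of all 32851 windows held them. Of members that rose and held both in a single window, the 3 with the lowest adjusted p are shown. Windows of 1 chromosome were left out of this choice. Matches are in capitals, with no overlap between motifs. Bub1b, a spindle checkpoint kinase gene, rose by 2.83 ± 0.33. The windows are Cenpf on the minus strand at chr1:189688037-189688336, Bub1b on the plus strand at chr2:118597961-118598260 and Mki67 on the minus strand at chr7:135716330-135716629. Their 2, 1 and 3 CCAAT matches all lie before the annotated start, at -132 and -71 in Cenpf, -113 in Bub1b and -188, -166 and -141 in Mki67. These letters are a description of the sequence and were not tested against the expression values.
Cenpf: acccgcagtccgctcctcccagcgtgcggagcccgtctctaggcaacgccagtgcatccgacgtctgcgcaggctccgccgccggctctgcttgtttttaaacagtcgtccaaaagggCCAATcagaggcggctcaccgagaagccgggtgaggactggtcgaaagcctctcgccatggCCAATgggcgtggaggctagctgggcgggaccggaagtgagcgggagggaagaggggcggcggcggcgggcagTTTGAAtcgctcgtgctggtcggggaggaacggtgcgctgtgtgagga
Bub1b: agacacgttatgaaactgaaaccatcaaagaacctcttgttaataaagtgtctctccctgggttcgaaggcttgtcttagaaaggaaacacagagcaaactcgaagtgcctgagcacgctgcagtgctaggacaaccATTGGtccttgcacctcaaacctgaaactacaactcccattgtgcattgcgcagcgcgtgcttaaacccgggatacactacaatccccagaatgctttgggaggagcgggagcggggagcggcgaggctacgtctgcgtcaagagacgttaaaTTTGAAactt
Mki67: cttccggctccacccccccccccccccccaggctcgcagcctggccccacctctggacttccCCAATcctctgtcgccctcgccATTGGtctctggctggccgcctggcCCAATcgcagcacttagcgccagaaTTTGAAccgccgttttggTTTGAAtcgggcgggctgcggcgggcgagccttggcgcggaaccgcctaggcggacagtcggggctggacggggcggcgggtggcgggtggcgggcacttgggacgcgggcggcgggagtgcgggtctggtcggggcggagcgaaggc

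Immediate early genes, whose transcription follows stimulation within minutes, rose in 15 of 25, with none lower. Klf6 had 254 to 457 CPM at KO day 10 and 42.3 to 62.2 CPM at KO day 0 and rose by 2.66 ± 0.20. Atf3 rose by 3.90 ± 0.39 and Jun, a subunit of AP-1, by 2.93 ± 0.31. Of 18 genes of necroptosis, pyroptosis and ferroptosis 11 rose. The inflammatory caspase gene Casp4 rose by 3.03 ± 0.45, the necroptosis effector genes Mlkl and Ripk3 by 2.0 ± 0.31 and 2.73 ± 0.50, and the pyroptotic pore gene Gsdmd by 1.96 ± 0.32. Gpx4, which protects membranes from lipid peroxides, changed by -1.15 ± 0.24, and the pore gene Dfna5 by -0.45 ± 0.17, or 0.12 on log2(FPKM + 1). Without KO day 0 replicate 4, 8 of them rose, and with total-count scaling 15 were higher and 1 lower.

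Collagens rose, with a split inside the type IV family. Of 25 collagen genes 21 rose and 3 fell, or 1 with total-count scaling, and the median was 1.83. Col1a1, a chain of the main fibrillar collagen, had 1094, 868, 983 and 607 CPM at KO day 10, against 54.4, 44.5, 31.2 and 41.4 CPM at KO day 0. Col3a1 had 1272, 1534, 1479 and 936 CPM at KO day 10 and 80.6, 118, 57.1 and 59.6 CPM at KO day 0. Col12a1, of the surface of collagen fibrils, rose by 4.84 ± 0.31 (adjusted p = 7.7e-10 by edgeR) and Col8a1 by 3.94 ± 0.34. The type IV chains of all basement membranes, Col4a1 and Col4a2, rose by 1.72 ± 0.24 and 1.62 ± 0.20. The chains of the mature glomerular basement membrane, Col4a3 and Col4a4, changed by -1.45 ± 0.34 and -1.18 ± 0.35. Col4a3 had 174 to 215 CPM at KO day 10 and 432 to 668 CPM at KO day 0. The third gene that fell was Col27a1 (-0.90 ± 0.36). Col4a3 and Col4a4 were named because they passed against most of their list, and Col4a1 and Col4a2 after their values were seen.

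Enzymes that mature and crosslink collagen rose in 13 of 24 and fell in 2. Adamts2, which trims procollagen, rose by 3.82 ± 0.24, the matrix protein gene Sparc by 2.65 ± 0.29, the crosslinking gene Loxl1 by 1.90 ± 0.23 and the collagen chaperone gene Fkbp10 by 2.92 ± 0.37. The prolyl hydroxylase genes P4ha1 and P4hb changed by -0.65 ± 0.24 and -0.75 ± 0.20. With total-count scaling none of the list was lower, and on log2(FPKM + 1) neither. Of 42 other matrix genes 35 rose and none fell. Fn1, fibronectin, had 625, 612, 542 and 408 CPM at KO day 10, against 33.7, 49.9, 30.6 and 55.0 CPM at KO day 0. The thrombospondin gene Thbs2 rose by 3.86 ± 0.29 and the TGF-beta binding gene Ltbp2 by 5.72 ± 0.46.

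Fibroblast and pericyte genes rose in 16 of 21, with none lower, or 1 lower without KO day 0 replicate 4. The PDGF receptor gene Pdgfrb rose by 1.88 ± 0.18, the surface marker gene Thy1 by 3.34 ± 0.40 and Fap, a protease of activated fibroblasts, by 3.47 ± 0.50. Acta2, the smooth muscle actin of myofibroblasts, had 163.0, 163.4, 192 and 117 CPM at KO day 10, against 45.9, 55.8, 41.8 and 54.5 CPM at KO day 0, a rise of 1.68 ± 0.37. Of 34 genes of the TGF-beta pathway 24 rose and 1 fell. Among ligands Tgfb1 had 63.5, 58.8, 69.2 and 51.8 CPM at KO day 10, against 14.7, 13.7, 13.9 and 13.9 CPM at KO day 0. Among receptors Tgfbr2 rose by 1.25 ± 0.15. Among targets Cyr61 rose by 3.47 ± 0.40. Bmp7, a ligand that maintains tubular epithelium, changed by -1.23 ± 0.25. In the Wnt and Notch list 17 of 32 rose and 1 fell, or 16 and none without KO day 0 replicate 4, with Wnt10a at 3.91 ± 0.43 and the secreted inhibitor gene Sfrp1 at -0.61 ± 0.20, or 0.06 on log2(FPKM + 1).

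Matrix-degrading enzymes and their inhibitors rose together. Of 33 metalloproteinases 23 rose and 2 fell, or none with total-count scaling. Mmp2, a gelatinase, rose by 3.59 ± 0.24, Mmp14, which activates it, by 3.28 ± 0.36 and Adamts1 by 2.65 ± 0.20. The 2 that fell were Adam9 (-0.75 ± 0.21) and Adamts15 (-0.78 ± 0.31). Of 33 protease inhibitors and plasminogen genes 20 rose and 4 fell, or 2 with total-count scaling. Timp2, an inhibitor of metalloproteinases, rose by 1.82 ± 0.18 and the serpin gene Serpine2 by 2.92 ± 0.28. Timp3, its matrix-bound relative, changed by -1.10 ± 0.35, with 990 to 1395 CPM at KO day 10 and 2054 to 2793 CPM at KO day 0. The antiprotease gene Serpina1a was at 0.269 to 0.999 CPM at KO day 10 and 0.152 to 0.312 CPM at KO day 0 and did not pass, and reads of its near-identical copies may be shared. Elane, neutrophil elastase, had a single count over KO day 10 and none over KO day 0 and was too low to test.

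The lysosome list had rises and falls in shares near those over all genes, 28.3% higher and 26.0% lower. Of 31 genes 10 rose, 8 fell and 13 did not pass. Ctsk, a collagen-degrading cathepsin, rose by 2.67 ± 0.26, and Ctss, the cathepsin of antigen presenting cells, by 2.30 ± 0.40. The membrane protein gene Lamp1 changed by -0.60 ± 0.18, or 0.02 on log2(FPKM + 1), Lamp2 by -0.72 ± 0.17 and the sialidase gene Neu1 by -1.16 ± 0.26. This balance depended on the scaling, since 17 were higher and 2 lower with total-count scaling.

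Genes of macrophages and monocytes rose in 26 of 34 and fell in 2, or 1 with total-count scaling. Cx3cr1, the fractalkine receptor, had 74.1 to 95.9 CPM at KO day 10 and 13.1 to 19.6 CPM at KO day 0, a rise of 2.35 ± 0.19. Ccr2, the receptor of entering monocytes, rose by 2.57 ± 0.24, the mannose receptor gene Mrc1 by 3.06 ± 0.31 and C1qa by 2.28 ± 0.27. Mertk, which clears dying cells, and Ly6c1 changed by -0.83 ± 0.17 and -0.48 ± 0.19, and Ly6c1 by 0.18 on log2(FPKM + 1). Summed over the list, KO day 10 libraries held 2927 to 3712 CPM, against 707 to 1121 CPM at KO day 0. Dendritic cell genes rose in 17 of 22, with Clec10a at 2.92 ± 0.28 and Cd83, a marker of mature dendritic cells, at 2.37 ± 0.30.

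Lymphocyte and granulocyte genes were low in level. Of 26 T cell genes 12 rose and none fell. The T cell factor gene Tcf7 rose by 2.40 ± 0.26 and the kinase gene Lck by 1.27 ± 0.42. The summed list stood at 168 to 238 CPM at KO day 10 and 107 to 151 CPM at KO day 0, and 8 passed without KO day 0 replicate 4 and 24 with total-count scaling. Of 17 NK and cytotoxic genes 5 rose, a share near that over all genes, and 11 with total-count scaling. Among them Klrd1 rose by 1.46 ± 0.36. Of 15 B cell genes 6 rose, or 11 with total-count scaling. Bank1 rose by 2.12 ± 0.34, and the complement receptor gene Cr2, the only 1 to fall and not called without KO day 0 replicate 4, changed by -1.12 ± 0.47. Of 20 neutrophil genes in the file 11 were high enough to test. Of these 3 rose, a share near that over all genes: Lcn2, Prtn3 (4.67 ± 0.91) and Csf3r (1.94 ± 0.75). Lcn2 is made by injured tubules too, and Csf3r lost the call without KO day 0 replicate 4 (1.93). Hdc, the gene of the histamine-forming enzyme, was counted in the list of mast cells and eosinophils. It changed by -4.03 ± 1.49 with KO day 0 replicate 4, the library that carried Xist. There Hdc had 71.4 CPM, against 0.457 to 0.773 CPM in the other 3. Without that library the difference was 0.81 and did not pass. Which cells the Hdc reads came from was not tested.

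**Figure D5:**
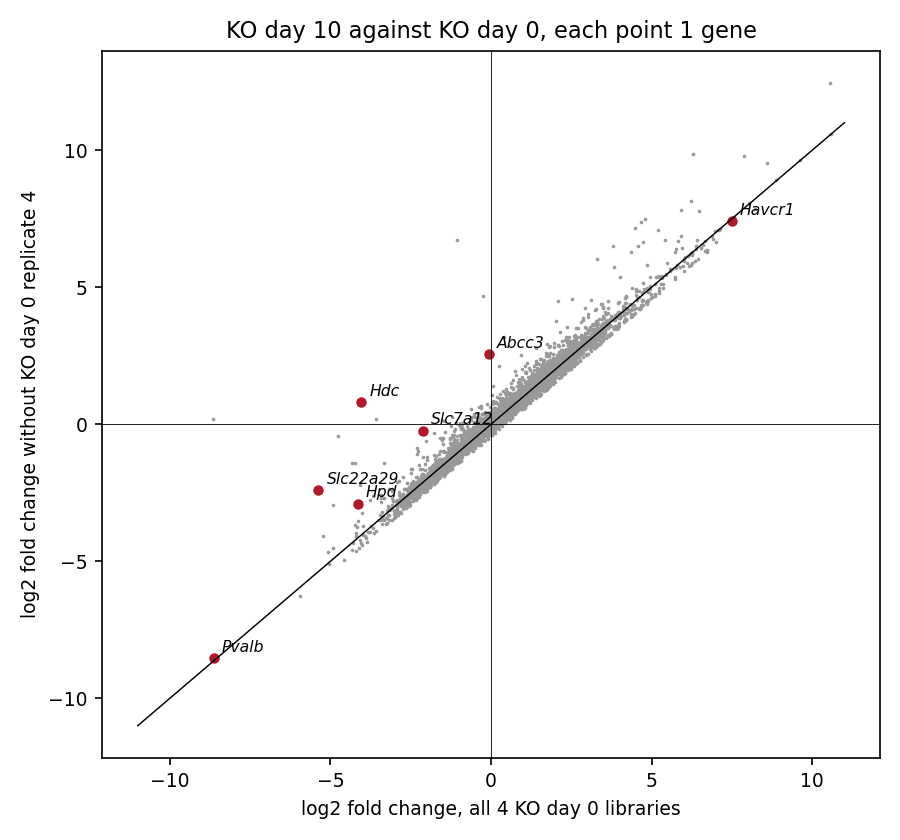
Each point is 1 gene, with its log2 fold change from all libraries on the x axis and without KO day 0 replicate 4 on the y axis, and the diagonal marks equal values. Havcr1 and Pvalb lie near the diagonal, and Hdc moves to 0.81 without the library, against -4.03 with it.

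Signals that call in leukocytes rose widely. Of 39 chemokines and receptors 24 rose and 1 fell, or none on log2(FPKM + 1). The fractalkine gene Cx3cl1 had 309 to 366.5 CPM at KO day 10 and 99.4 to 136 CPM at KO day 0, a rise of 1.50 ± 0.14. Cxcl17 rose by 7.88 ± 0.58 and the neutrophil chemokine gene Cxcl2 by 6.38 ± 1.55, with 13.5, 18.1, 6.13 and 8.48 CPM at KO day 10 and at most 0.156 CPM at KO day 0. Of 39 cytokine genes 24 rose and 2 fell, or 30 and 1 with total-count scaling. The cytokine gene Lif rose by 5.28 ± 0.43 and the receptor gene Osmr by 2.58 ± 0.28, with the inhibitor gene Socs3 at 4.32 ± 0.49. The 2 that fell were the receptor genes Il11ra1 and Lifr, which changed by -1.02 ± 0.16 and -0.66 ± 0.13. Of 26 complement genes 18 rose and 3 fell, or 2 with total-count scaling. C3, the central component, had 1176 to 2089 CPM at KO day 10, against 33.6 to 92.5 CPM at KO day 0, a rise of 4.93 ± 0.47. Cfi, which inactivates C3b, rose by 3.44 ± 0.26, and the membrane protectors Cd55 and Cd59a changed by -1.08 ± 0.25 and -0.87 ± 0.21.

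Antigen presentation rose in 18 of 23 genes and the interferon response in 20 of 39, or 31 with total-count scaling, with none lower in either. The class II genes H2-Aa and H2-Eb1 rose by 1.86 ± 0.31 and 1.89 ± 0.32. Among interferon genes the RNA sensor gene Ddx58 rose by 1.25 ± 0.18, Ifi204 by 2.02 ± 0.36 and Irf9 by 0.96 ± 0.17. In total the interferon list held 2797, 3044, 3536 and 5213 CPM in KO day 10 replicates 1 to 4, against 1489 to 2462 CPM at KO day 0, with replicate 4 the highest. The list of nucleic acid sensing, which holds sensors, their partners and nucleases, rose in 17 of 26 and fell in 3, or 1 with total-count scaling. Tlr7, the endosomal receptor for single-stranded RNA, rose by 1.57 ± 0.29, its chaperone gene Unc93b1 by 1.71 ± 0.23 and Tmem173, which codes for STING, by 2.66 ± 0.32. The nuclease gene Dnase1 changed by -3.07 ± 1.12, with 16.3 to 153 CPM at KO day 10 and 280 to 987 CPM at KO day 0, and lost the call without KO day 0 replicate 4 (-2.80).

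Endothelial genes gave no common direction, and this depended on the scaling. Of 27 endothelial genes 4 rose, 6 fell and 17 did not pass, and with total-count scaling 13 were higher and 2 lower. Without KO day 0 replicate 4, 4 rose and 3 fell. Igfbp5 changed by -1.63 ± 0.28 and Vegfa, the growth factor that podocytes and tubules supply to capillaries, by -1.26 ± 0.27, while the apelin receptor gene Aplnr and Vwf rose by 1.85 ± 0.36 and 1.67 ± 0.38. Of 17 podocyte genes 8 rose and 2 fell, and with total-count scaling 11 were higher and none lower. Without KO day 0 replicate 4, 10 rose and 1 fell. Kirrel and Tcf21, both also expressed outside the podocyte, rose by 1.82 ± 0.19 and 2.09 ± 0.33. Claudins and junction genes rose in 18 of 29 and fell in 4. Cldn1 and the cadherin gene Cdh3 rose by 2.46 ± 0.18 and 2.72 ± 0.19. The 4 that fell were the pore-forming claudins of nephron segments Cldn2 (-0.99 ± 0.27) and Cldn10 (-1.81 ± 0.36), with Cldn12 (-0.82 ± 0.21) and Cdh16 (-0.80 ± 0.32). With total-count scaling 20 were higher and 2 lower. Of 8 lymphatic endothelial genes 4 rose and 2 fell, or 1 with total-count scaling.

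Among markers of other tissues, 1 of 10 adrenal and 2 of 10 skeletal muscle genes were high enough to test, and none passed. The 9 adipocyte genes summed to 202 to 439 CPM at KO day 10, against 860 to 2450 CPM at KO day 0, with no overlap. Most of that sum was Lpl, lipoprotein lipase, which kidney cells also express. Lpl had 370.5, 148, 174 and 310 CPM at KO day 10, against 1426.5, 2380, 1910 and 818 CPM at KO day 0, a change of -2.70 ± 0.41, and was the only 1 of the 4 tested to pass. The other 5, Adipoq, Lep, Plin1, Retn and Ucp1, were too low to test. Of 9 nuclear-retained RNAs, read as a sign of RNA makeup, Meg3 alone passed, with a rise of 1.43 ± 0.55, and none passed without KO day 0 replicate 4 and 3 with total-count scaling. Their sum was 2307 to 4264 CPM at KO day 10 and 1920 to 3756 CPM at KO day 0. Lpl and Meg3 were named after their values were seen.

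Some of the calls named above were weaker than others. Of 192 such calls, 105 were rises and 87 were falls. With total-count scaling all 105 rises and 61 of the falls still passed, and on log2(FPKM + 1) 102 and 54 did. With 1 library left out at a time, 21 of the calls ended. Leaving out KO day 0 replicate 4 ended that of Cdh16 (-0.72) and of Sfrp1 (-0.36), besides those already given. Cdh16 lost its call with 6 libraries of the 2 groups (-0.82 to -0.72), and Sfrp1 also without KO day 10 replicate 2 (-0.54). The call for Slc2a2 ended with 20 of the 24 libraries (-1.32 to -1.01) and that for Cr2 with 18 (-1.17 to -0.93). Any KO day 10 library ended the calls for Adamts15 (-0.83 to -0.61 over 7 libraries) and Col27a1 (-0.92 to -0.77 over 6). The falls of Ly6c1 (-0.47 to -0.39), Dfna5 (-0.42 to -0.38) and P4ha1 (-0.63 to -0.59) and the rise of Grhl2 (0.37 to 0.49) each ended with 4 or 5 libraries of the 2 groups. The fall of Alas2 ended with 4 and was -1.43 without KO day 0 replicate 2. Among rises, Csf3r (1.77 to 2.07), Slc16a3 (2.38 to 2.53), Meg3 (1.13 to 1.35) and Hk3 (1.70 to 1.89) ended with 7, 4, 4 and 3 libraries. Without KO day 10 replicate 2 or 3 the fall of Dnase1 did not pass (-2.73 and -2.94). That of Prodh2 ended without KO day 10 replicate 2, 3 or 4 (-1.58 to -1.47), and that of Oat without replicate 2 or 4 (-0.83 and -0.80). That of Hdc also ended without any 1 KO day 10 library (-4.11 to -3.89).

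Few genes passed between day 5 and day 10 in KO kidneys, and their number depended on the libraries and the tool. In KO day 10 against KO day 5, 3 genes passed by edgeR, all higher (0.0199% of genes tested), with 1614 at an unadjusted p under 0.05 and 72 by DESeq2. Calcr, the calcitonin receptor, had 4.05, 3.60, 3.71 and 3.76 CPM at KO day 10 and 0.991, 0.607, 0.413 and 0.679 CPM at KO day 5, a difference of 2.48 ± 0.35. Ccr7, the receptor that takes dendritic cells and T cells to lymph nodes, had 5.35, 6.61, 6.13 and 9.50 CPM at KO day 10 and 3.03, 1.05, 1.42 and 1.47 CPM at KO day 5 (1.98 ± 0.29). Il12b, a cytokine subunit of dendritic cells, had 2.53, 2.48, 2.04 and 5.29 CPM at KO day 10 and at most 0.607 CPM at KO day 5 (2.82 ± 0.43). At KO day 0 Il12b had 1.31 to 3.18 CPM and Ccr7 had 2.34 to 4.04 CPM, so for Il12b day 10 and day 0 overlapped. The count ranged from 0 without KO day 5 replicate 4 to 12 without KO day 10 replicate 4. It was 54 without WT day 10 replicates 2 and 3, which belong to neither group but share the fit. The nuclear-retained RNAs summed to 2307 to 4264 CPM at KO day 10, against 4032, 1010, 912 and 898 CPM at KO day 5, and none of the 9 passed. Their part in the comparison was not tested.

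Finally the day 10 response of KO was set against that of WT as a difference of differences. By edgeR 490 genes passed (3.25%). The signed log2 response was lower in KO for 470 (3.12%) and higher for 20 (0.133%), or 320 and 11 without KO day 0 replicate 4. A lower response here is a smaller rise, a larger fall or a fall against a rise. The number passing depended on the fit: 2 passed with only the groups compared in the fit, 1 on log2(FPKM + 1), 162 on log2(FPKM + 0.1) and 849 by DESeq2. By at least 1 log2 unit, 456 were lower (3.02%) and 11 higher (0.0729%). Most of the 470 still rose in KO: 344 were called higher at KO day 10 than at KO day 0, 13 lower and 113 not called. For 435 of them every KO day 0 library lay above every WT day 0 library, and for 21 every KO day 10 library lay below every WT day 10 library. Over all genes tested these patterns held for 1588 (10.5%) and 276 (1.83%). Since the call uses these same values, the counts describe where the difference sits and are no test of it. By list the lower responses, among the 470, included 20 of 34 macrophage genes, 14 of 39 chemokine genes, 9 of 26 complement genes and 9 of 39 cytokine genes. None of the proximal tubule, thick limb, distal, collecting duct, respiratory chain, citric acid cycle, fatty acid or collagen genes was among them. These list counts come from the fit of all libraries and were not made under the other settings. Summed macrophage genes ran from 3070.5 to 15903 CPM between WT day 10 libraries, against 2927 to 3712 CPM at KO day 10.

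Single genes show both patterns. The signed response of Ptpru, a receptor phosphatase, was lower in KO than in WT (-1.82 ± 0.23, adjusted p = 0.00114 by edgeR). It had 16.9, 16.4, 15.6 and 16.2 CPM at KO day 10, all below the 48.9, 43.4, 40.2 and 38.9 CPM at KO day 0. In WT it had 21.8, 23.5, 23.4 and 18.6 CPM at day 10 and 14.4, 16.8, 19.3 and 15.1 CPM at day 0. Cdkn1a had 15.6 to 24.4 CPM at KO day 0 and 6.23 to 11.8 CPM at WT day 0, and its response in KO differed from that in WT by -2.14 ± 0.43. The chemokine gene Ccl9 had 32.2 to 40.1 CPM at KO day 10, against 48.8, 447, 282 and 52.0 CPM at WT day 10, and its response differed by -4.20 ± 0.81. The high WT values lie in WT day 10 replicates 2 and 3, which stand apart from the other WT libraries. Without both, 153 genes passed, and with KO day 0 replicate 4 left out too, 95. Ccl9 then differed by -2.17 without the 2 WT libraries and still passed, as did the chemokine gene Ccl6 (-2.11) and Ptpru (-1.72).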

How the data were processed

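Whole-kidney RNA-seq of 24 libraries in 6 groups of 4 was used as deposited: a table of whole-number counts per gene by the authors, with 23955 genes, and a table of FPKM values by the authors. Per the submitters' processing notes, bcl2fastq 2.16, STAR 2.5, Cufflinks and mm9 were used. The counter, annotation and strand setting are not given in the sources used here, so antisense and overlapping genes may share reads. Totals ran from 9800888 to 22542866 counts per library.

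Genes were filtered with filterByExpr (count minimum 10, total 15), which left 15080, and fitted in 1 model of 6 group means with edgeR 4.0.16 in R 4.3.3 (TMM, quasi-likelihood F test, Benjamini-Hochberg, threshold 0.05). The contrasts were KO day 10 minus KO day 0, KO day 10 minus KO day 5, and the day 10 response of KO minus that of WT. Each standard error given is the absolute log2 fold change divided by the square root of the F statistic. It was not read from the fitted coefficients. Alternatives were RLE and total-count scaling, other filters, DESeq2 1.42.0, limma 3.58.1 on log2(FPKM + 1) and log2(FPKM + 0.1), fits of fewer groups, the replicate number as a block, and libraries left out. On simulated data for KO day 10 against KO day 0 over 14960 genes, edgeR recovered 68% of changes of 1 log2 unit and 92% of changes of 2, with 3 false calls. Only 100 genes were changed at each size, as many up as down, whereas 8193 genes passed in the data. The simulation thus held no broad shift between groups, and its false calls are no error rate for these data.

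Same-numbered KO day 10 and KO day 0 libraries did not deviate together (correlations -0.19 to -0.03), which gave no sign that the numbers pair them. Same-numbered KO day 10 and WT day 10 libraries correlated at 0.14 to 0.31. The closest WT day 10 library to KO day 10 replicates 1, 2, 3 and 4 was replicate 4, 2, 2 and 4. It thus had the same number for replicates 2 and 4. With 4 libraries in a group, whether the numbers pair these cannot be told. The replicate block changed the count for the response of KO minus WT by less than 1.5 times.

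The members and the 54 gene lists were chosen with earlier results of these data known. Genes named are those of a fixed list, up to 15 with the largest rise and fall, up to 4 of each list with the lowest adjusted p, members that passed against their list, the 10 most abundant genes of either group, and by the same rule up to 10 for the other contrasts, of which a few are not reported here. Those chosen after their values were seen are marked, with Clu, Slc3a1, Slco1a1, Abcc4, Kynu, Oat, Prodh2 and the genes of KO day 0 replicate 4. Promoter windows were taken from RefSeq on GRCm38.p6 by symbol, and no coordinates of the files were used.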

Additional observations from a re-analysis of the deposited data

Results flagged for a closer look

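In groups of 4, a library was marked where its gap to the nearest other, divided by the range of the group, was above Dixon's 95% limit. Of 134 sets of values 8 were marked, and chance marks about 1 in 20. In KO day 0, Lcn2 was marked for replicate 2 at 7.28 CPM (0.882). The summed distal convoluted tubule genes were marked for KO day 0 replicate 4 at 12374 CPM (0.892), against 7447 to 7982 CPM in the other 3, and podocyte genes for the same library at 1875 CPM (0.919), against 1163 to 1220 CPM. In KO day 10, Elane was marked for a single count in replicate 2 (1.0). The share of counts held by the 10 genes with the most counts was marked for replicate 2 at 5.18% (0.871), against 6.39% to 6.57% in the other 3. Replicate 4 was marked for summed genes of growth arrest at 1060 CPM (0.837), of necroptosis at 716 CPM (0.898) and of antigen presentation at 14612 CPM (0.849).

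The day 10 response differed between KO and WT by edgeR's interaction contrast for 12 named genes. The differences, KO minus WT on the log2 scale, were -1.627 for Pld4, -2.145 for Cdkn1a, -5.389 for Clec4n, -5.277 for Ccr1, -5.264 for Mmp13, -4.467 for Ccl6, -4.203 for Ccl9, -2.837 for Pla2g7, -2.739 for Hif3a, -1.817 for Ptpru, -1.588 for Emcn and 0.5816 for Fbxo25. Pld4 had 24.3 to 50.2 CPM at KO day 10 and 54.6 to 117 CPM at WT day 10, with no overlap. For Ccr1 the libraries of KO day 10 held 3.64 to 10.96 CPM, against 12.2, 239, 239 and 15.2 CPM at WT day 10, with replicates 2 and 3 the high ones. Without those 2 WT libraries Clec4n (-2.5), Ccl6 (-2.11), Ccl9 (-2.17), Ptpru (-1.72) and Cdkn1a (-1.22) still passed. The calls for Pld4 (-1.24), Ccr1 (-2.09), Mmp13 (-1.45), Pla2g7 (-0.67), Hif3a (-2.42), Emcn (-0.85) and Fbxo25 (0.53) ended. Leaving out 1 library at a time ended the call for Pld4 with 5 libraries (-1.54 to -1.41), for Hif3a with 12, Fbxo25 with 7, Pla2g7 with 5, Emcn with 4 and Clec4n and Ccr1 with 2 each.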

How the results depend on the processing

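The count for KO day 10 against KO day 0 stayed within 1.5 times of 8193 under every setting run, from 7126 without KO day 10 replicate 2 to 10865 on log2(FPKM + 1) with no filter. The share of calls that were higher was 52.1%, 82.2% with total-count scaling and 88.1% on log2(FPKM + 1). For KO day 10 against KO day 5 (3 genes) the counts were 72 by DESeq2, 5 and 15 on log2(FPKM + 1) with and without the filter, 9 with only the groups compared, 54 without WT day 10 replicates 2 and 3, 45 with KO day 0 replicate 4 left out as well, and 0 to 12 with 1 library left out. For the response of KO minus WT (490 genes) they were 849 by DESeq2, 1 and 4 on log2(FPKM + 1) with and without the filter, 162 on log2(FPKM + 0.1), 2 with only the groups compared, 153 without WT day 10 replicates 2 and 3, 95 with all 3 left out, and 246 (without WT day 0 replicate 1) to 1808 (without WT day 10 replicate 4). The cause was not tested. With the replicate block the counts were 8311, 4 and 431, and of the named calls for KO day 10 against KO day 0 those of Grhl2 and Hdc ended.

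Of the named genes 7 changed sign under some setting. On log2(FPKM + 1), with and without the filter, and on log2(FPKM + 0.1), Dfna5 stood at 0.1186 and 0.1612, Lamp1 at 0.02182 and 0.02185, Ly6c1 at 0.1784 and 0.1806, Sfrp1 at 0.0571 and 0.05993 and Abcc4 at 0.5831 and 0.6549. Abcc4 stood at 0.1114 with total-count scaling, 0.6083 without KO day 0 replicate 4 and 0.6188 with all 3 left out. Hdc stood at 0.8097 without KO day 0 replicate 4 and at 0.8134, past the threshold, with all 3 left out, and with 1 library left out it ranged from -4.442 to 0.8097. With 1 library left out Abcc4 ranged from -0.5658 to 0.6083 and Eef1a1 from -0.02294 to 0.06554. Eef1a1 stood at -0.003135 with only the groups compared, and without KO day 0 replicate 2 or 3 or KO day 10 replicate 4 at -0.02018, -0.02294 and -0.02018. At this depth 9 of the 20 neutrophil genes in the file were too low to test. The total-count setting and the fit with all 3 libraries left out were chosen after seeing the data.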

Other observations

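Serpina1a, an antiprotease gene whose reads may be shared with near-identical copies, was at 0.269 to 0.999 CPM at KO day 10 and 0.152 to 0.312 CPM at KO day 0, against 17.0, 0.506, 0.541 and 28.1 CPM at WT day 10 and 18.8 to 59.0 CPM at WT day 0. At day 0 the genotypes did not overlap.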
